A study of Gallus gallus with 2 samples.

Results

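Tandem 3' splice sites are pairs of acceptors that lie a few bases apart, so that the start of an exon can shift by a few nucleotides. The rows described here are the alternative 3' splice sites whose listed end and start differ by 12 nt or less, outside chromosome Z, with exactly 2 read numbers per library and exact repeats removed. This rule gave 481 rows under 455 gene names, of 1734 alternative 3' site rows and 10313 rows of all splicing types. In 115 of them the acceptors lay 3 nt apart, and in 366 they lay 1, 2 or 4 to 12 nt apart. No depth or inclusion level entered the rule, and read numbers served only to find exact repeats and rows with other than 2 numbers.

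The reads come from poly(A) RNA of chicken DT40 cells, a B-lymphoblast line from the bursa of Fabricius. One library was made from SRSF10-deficient cells, labelled SRSF10-/-, and 1 library from wild-type cells of the same line. Whether the deficient cells were 1 clone, and how the gene was disrupted, is not given in the sources used here. With 1 library of each genotype there is no replicate check, and each test below compares 2 libraries and not 2 genotypes. SRSF10 had 0 rows in the table, so its own reads could not be used to check the labels. Among the markers looked up, 9 of 12 B-cell genes had rows, with 8622 reads in the deficient library and 7732 in the wild-type library. Rows were found for 1 of 6 T-cell genes (CD8A, 108 reads in the deficient and 80 in the wild-type library), for 2 of 4 myeloid genes (561 reads in the deficient and 457 in the wild-type library) and for 0 of 4 erythroid genes. The table lists splicing events only, so a marker without rows is not shown to be unexpressed.

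A 3' splice site ends in the dinucleotide AG, which is recognised by the small subunit of U2AF and is used in the last step of intron removal. When AG occurs again just downstream, either acceptor can be joined to the upstream exon. Acceptors 3 nt apart are known as NAGNAG sites, and choosing between them adds or removes a single codon, while a shift that is not a multiple of 3 changes the reading frame if it falls in coding sequence. SRSF10 is a member of the serine/arginine-rich (SR) family, proteins that bind exonic RNA and influence which splice sites the spliceosome uses.

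For each row the table gives exclusion reads and inclusion reads, and the inclusion level is the inclusion reads as a percent of both. The table does not say which of the competing acceptors counts as inclusion, so a higher listed inclusion is a shift towards the acceptor counted that way and may be the upstream or the downstream one. Balance between the acceptors is therefore given as the minor-site share, the reads of the less used acceptor as a percent of the row's reads, which needs no such naming. It is taken in each library separately, so in a row whose major acceptor switches it refers to a different acceptor in each library. Members had 70913 reads in the deficient library and 69690 reads in the wild-type library. At least 20 reads in each library were found in 280 rows under 268 gene names, with a median of 101 reads per row in the deficient library and 99 in the wild-type library. The other 201 rows were not tested: 159 had fewer than 20 reads in both libraries, 19 reached 20 only in the deficient library and 23 only in the wild-type library. The tested rows comprised 60 at 3 nt and 220 at other distances. Positions are in the galGal4 build as listed, and sequences around the sites are not used here.

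The 3 nt spacing was the most common distance. It accounted for 115 of 481 rows (23.9%), while the other distances from 1 to 12 nt held between 20 and 47 rows each. Distances of 6, 9 and 12 nt, which also keep the frame, held 47, 43 and 44 rows, more than the 20 to 40 rows at each distance that does not. Together, multiples of 3 made up 51.8% of the rows, against 43.7% of the 1163 alternative 3' site rows over 12 nt apart. Among tested rows the difference was small, at 50.7% of 280 tandem rows and 50.5% of 679 rows over 12 nt apart. Outside the limit, 20 rows had a distance of 13 nt.

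**Figure D1:**
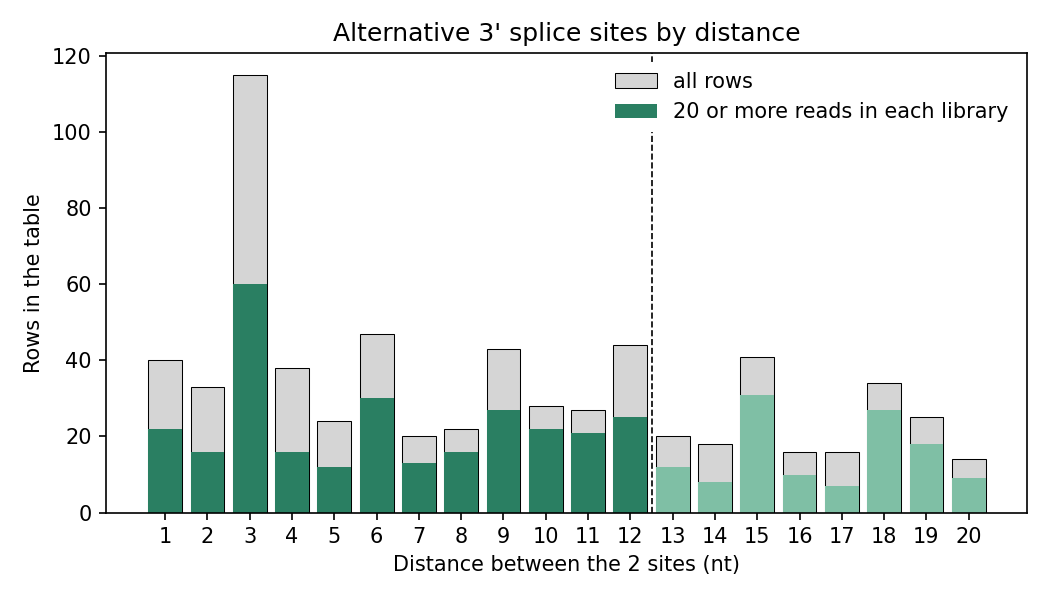
Number of alternative 3' splice site rows (y axis) at each distance between the 2 sites in nt (x axis), all rows and those with 20 or more reads in each library, with the 12 nt limit drawn as a line and paler bars beyond it. The bar at 3 nt stands at 115 rows, and no other distance up to 12 nt has more than 47.

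Acceptors 3 nt apart shared their reads more evenly than the others did, in both libraries. The median minor-site share of the 60 tested rows at 3 nt was 16.9% in the deficient library and 18.7% in the wild-type library. For the 220 rows at other distances it was 1.92% in the deficient library and 2.22% in the wild-type library. Within these, rows at 6, 9 or 12 nt had medians of 4.11% in the deficient library and 7.89% in the wild-type library, and rows whose distance is not a multiple of 3 had medians of 1.30% in the deficient library and 1.43% in the wild-type library. The 12 nt rows stood nearer to the 3 nt rows, with medians of 13.5% in the deficient library and 12.4% in the wild-type library. For alternative 3' sites over 12 nt apart the medians were 4.63% in the deficient library and 4.76% in the wild-type library. These medians are descriptions over rows, without a test.

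A minor-site share of at least 10% was found in 38 of 60 rows at 3 nt (63.3%) in the deficient library and in 40 (66.7%) in the wild-type library. At other distances it was found in 63 of 220 rows (28.6%) in the deficient library and in 68 (30.9%) in the wild-type library. No read of the minor acceptor was listed in either library for 1 row at 3 nt and for 16 rows at other distances. Depth did not remove the contrast: among rows with at least 200 reads in the shallower library, the 10 rows at 3 nt had median minor-site shares of 19.4% in the deficient library and 22.3% in the wild-type library. The 56 equally deep rows at other distances had medians of 0.800% in the deficient library and 0.819% in the wild-type library.

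**Figure D2:**
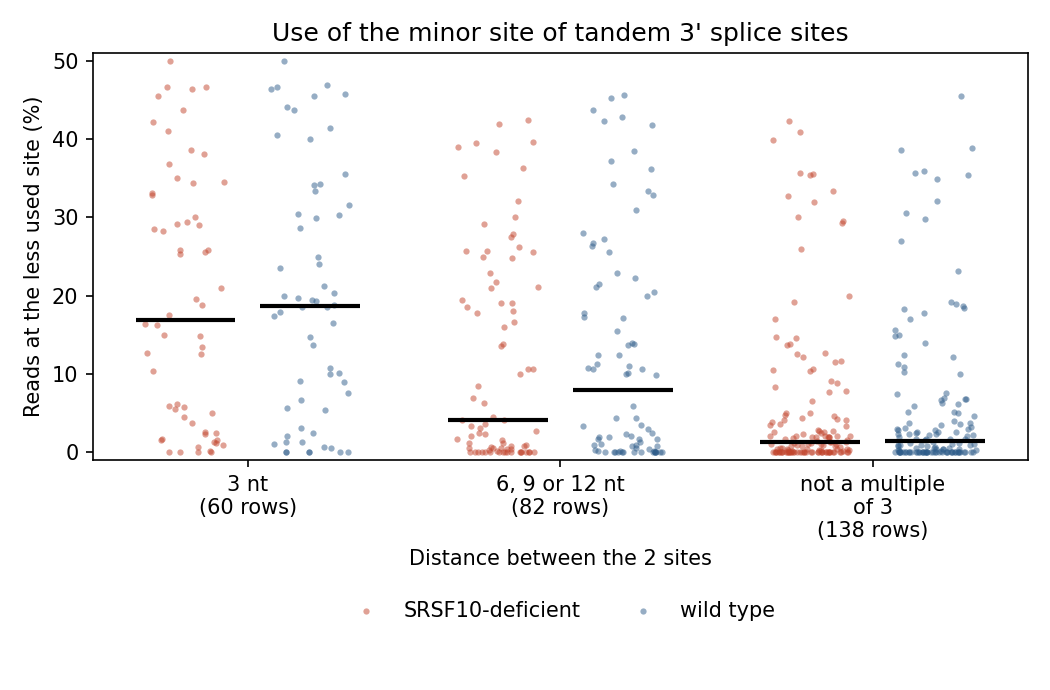
Minor-site share in percent (y axis) of each tested tandem row in the SRSF10-deficient and wild-type libraries, for rows 3 nt apart, rows 6, 9 or 12 nt apart and rows at other distances. Points are rows and bars are medians: the 3 nt medians stand at 16.9% and 18.7%, and those of distances that are not a multiple of 3 at 1.30% and 1.43%.

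The most balanced 3 nt acceptors in wild-type cells, with at least 50 reads in each library, were those of RPS16, ZYX, ATXN3, DBF4B, LOC100857931 and XLOC_012449. ATXN3, a deubiquitinase, included 217 of 375 reads (57.9%) in the deficient library, against 178 of 328 (54.3%) in the wild-type library. DBF4B, an activating subunit of the replication kinase CDC7, included 56 of 95 reads (58.9%) in the deficient library, against 81 of 152 (53.3%) in the wild-type library. LOC100857931 included 26 of 56 reads (46.4%) in the deficient library, against 34 of 64 (53.1%) in the wild-type library. These 3 rows stayed near even use in both libraries, with differences of 3.60, 5.66 and -6.70 points, and Fisher's exact adjusted p was 1 for each. XLOC_012449, an unnamed locus on chromosome 3, included 28 of 60 reads (46.7%) in the deficient library, against 47 of 79 (59.5%) in the wild-type library. Its difference of -12.8 points did not pass (Fisher's exact adjusted p = 0.745). RPS16 and ZYX are described with the changed rows.

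Depth gave the tightest values for a few abundant transcripts. CIRBP, listed for a cold-inducible RNA-binding protein, has acceptors 3 nt apart at chromosome 28, 2973400 to 2973403. It included 1010 of 1431 reads in the deficient library (70.6%, 95% interval 68.1% to 72.9%), against 979 of 1430 in the wild-type library (68.5%, 66.0% to 70.9%). That difference of 2.12 points was within counting error (Fisher's exact adjusted p = 0.842). TCF12, an E-protein transcription factor used in lymphocytes, included 93.8% of 386 reads in the deficient library, against 93.3% of 522 in the wild-type library. SFPQ, a splicing and paraspeckle protein, included 1.15% of 523 reads in the deficient library, against 1.36% of 587 in the wild-type library. TTC1 included 86.6% of 373 reads in the deficient library, against 80.3% of 452 in the wild-type library (Fisher's exact adjusted p = 0.201). In ANP32E, a histone chaperone for H2A.Z, the minor acceptor had 2 of 1152 reads in the deficient library and 3 of 632 in the wild-type library. These 5 deep rows ranged from nearly single use to a minor acceptor with close to 30% of the reads.

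At other distances the deepest rows were those of YBX1, RPS15, PRPS1 and ANP32A. YBX1, a cold-shock-domain mRNA-binding protein, has acceptors 12 nt apart and included 1158 of 6060 reads (19.1%) in the deficient library, against 1667 of 9393 (17.7%) in the wild-type library. RPS15, a protein of the small ribosomal subunit, has acceptors 4 nt apart and included 2774 of 7814 reads (35.5%) in the deficient library, against 1912 of 5314 (36.0%) in the wild-type library. ANP32A, an acidic nuclear phosphoprotein, has acceptors 12 nt apart and included 63.7% of 1597 reads in the deficient library, against 61.5% of 1425 in the wild-type library. In PRPS1, an enzyme of nucleotide synthesis, the acceptors 7 nt apart were used unevenly, with 7 of 1671 reads included in the deficient library and 7 of 1049 in the wild-type library. None of these rows passed Fisher's exact test after adjustment (lowest adjusted p = 0.289, YBX1).

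The acceptor with more reads was the same in both libraries in 267 of 280 rows, in 52 of 60 at 3 nt and in 215 of 220 at other distances. It switched in 11 rows, 6 of them at 3 nt, and 2 rows had an even split in 1 library. Inclusion in the 2 libraries had a Pearson correlation of 0.975 over the 280 rows, 0.932 over the 60 rows at 3 nt and 0.982 over the 220 others, as a description of rows that share both libraries. Inclusion was higher in the deficient library in 133 rows, lower in 130 and equal in 17. The median absolute difference was 2.28 points over tandem rows, against 2.36 points over all 6089 tested rows of the table and 2.48 points over alternative 3' sites more than 12 nt apart.

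Rows at 3 nt differed more than rows at other distances, with a median absolute difference of 5.43 points against 1.69 points. In rows with at least 200 reads in the shallower library it was 1.30 points in the 10 rows at 3 nt, against 0.573 points in the 56 at other distances. A difference of at least 10 points was seen in 17 of 60 rows at 3 nt (28.3%) and in 28 of 220 at other distances (12.7%). Over rows with a minor-site share of at least 10% in the pooled reads of both libraries, the median absolute difference was 6.70 points in 39 rows at 3 nt and 5.37 points in 63 at other distances. In 244 such rows over 12 nt apart it was 5.51 points. A row can reach that pooled share through 1 library alone, so the filter favours rows that differ. These medians carry no test.

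**Figure D3:**
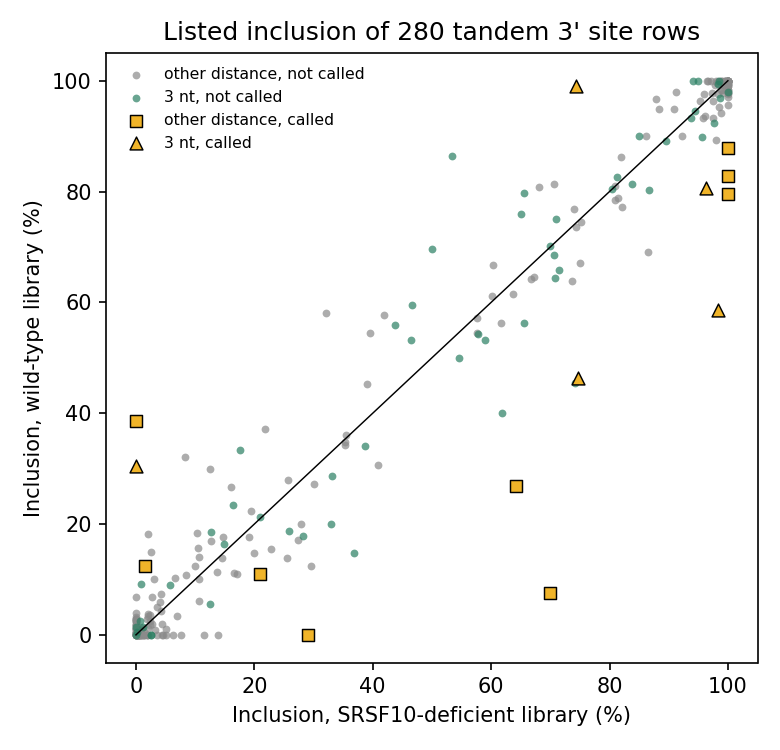
Inclusion in percent of each tested tandem row in the SRSF10-deficient library (x axis) against the wild-type library (y axis), with round points for rows not called (green at 3 nt, grey at other distances) and yellow triangles (3 nt) or squares (other distances) for called rows. Points below the diagonal are higher in the deficient library, and most of the 280 rows lie close to it (Pearson r = 0.975).

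A row was called changed at a Benjamini-Hochberg adjusted p under 0.05 in Fisher's exact test, adjusted over all 6089 tested rows, with a difference of at least 10 percentage points. Of the 280 tandem rows, 14 were called (5%), close to the 4.70% of all tested rows and the 4.58% of all alternative 3' site rows. Inclusion was higher in the deficient library in 10 (3.57%, against 2.48% of all rows) and lower in 4 (1.43%, against 2.22% of all rows). At 3 nt 5 of 60 rows were called (8.33%), 3 higher and 2 lower, and at other distances 9 of 220 (4.09%), 7 higher and 2 lower. Among rows with a pooled minor-site share of at least 10%, 4 of 39 at 3 nt (10.3%), 6 of 63 at other distances (9.52%) and 22 of 244 over 12 nt apart (9.02%) were called. Under the same filter the share was near these over the whole table, at 248 of 2924 rows (8.48%). It was 11 of 78 (14.1%) for alternative 5' site rows within 12 nt. A row can meet that filter through 1 library alone. LOC100857231 did so, with 0 of 394 inclusion reads in the wild-type library and 148 of 508 in the deficient library. The filter thus favours changed rows, and these shares are no measure of how often evenly used acceptors change. The share of 5% over all tested tandem rows was near the background, and no difference between distances was tested.

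**Figure D4:**
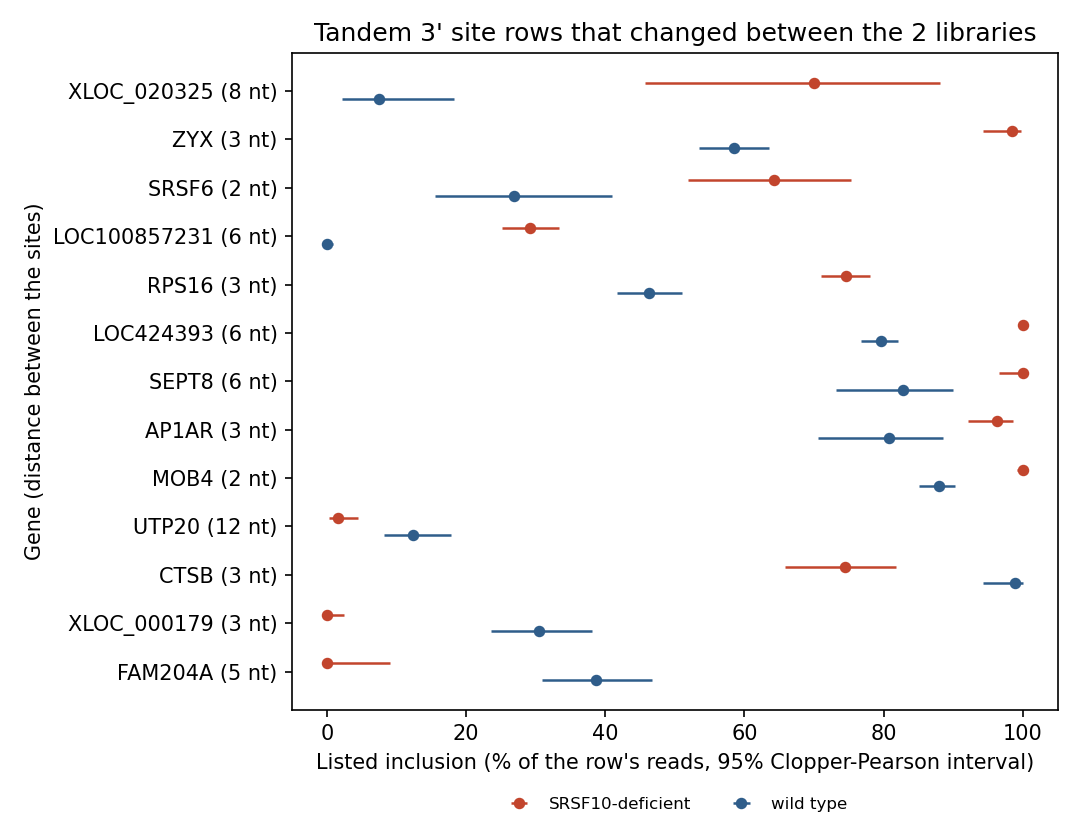
Inclusion in percent (x axis) of the called tandem rows described in the text (y axis, with the distance in nt) in the SRSF10-deficient and wild-type libraries, with 95% Clopper-Pearson intervals that cover counting error only. The row of XLOC_020325 has the widest difference, 62.5 points, and that of UTP20 the narrowest, -10.9 points; SEPT8 is listed under a spreadsheet date.

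ZYX encodes zyxin, a focal adhesion protein that binds actin regulators. Its acceptors lie 3 nt apart at chromosome 1, 77022690 to 77022693. Inclusion reads were 123 of 125 in the deficient library (98.4%, 95% interval 94.3% to 99.8%), against 229 of 391 in the wild-type library (58.6%, 53.5% to 63.5%). The intervals did not overlap, the difference was 39.8 points (33.6 to 44.9) and Fisher's exact adjusted p was 3.36e-19. Use was almost single in the deficient library and near even in the wild-type library, and the row held 0.320 times as many reads in the deficient library; the part of that in the result was not tested. Exclusion reads were 2 in the deficient library, against 162 in the wild-type library, and inclusion reads 123, against 229. The cassette exon rows of ZYX held 102 and 177 reads in the deficient library, against 136 and 263 in the wild-type library. The ratio of the tandem row alone is therefore no measure of the transcript's level. In such bulk samples fewer cells with the transcript and less RNA per cell cannot be told apart. A cassette exon of ZYX was called too (Fisher's exact adjusted p = 0.0191). It included 55.9% of 102 reads in the deficient library, against 33.8% of 136 in the wild-type library. With each chi-square divided by 2.18, as described below, that call was lost (adjusted p = 0.467, not an exact test).

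RPS16, a protein of the small ribosomal subunit, has acceptors 3 nt apart at chromosome 1, 39679925 to 39679928. It included 465 of 623 reads in the deficient library (74.6%, 71.0% to 78.0%), against 210 of 453 in the wild-type library (46.4%, 41.7% to 51.1%). This was the deepest of the called 3 nt rows, and it was higher by 28.3 points (Fisher's exact adjusted p = 7.26e-19). The acceptor with more reads switched, but the wild-type interval includes even use, so which acceptor was major there is not settled. The same exclusion reads, 158 in the deficient library and 243 in the wild-type library, were listed for a 5' site row of RPS16, where inclusion was 31.0% in the deficient library, against 12.9% in the wild-type library. The pair of rows is therefore not independent, and those exclusion reads may not belong to the tandem pair alone.

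XLOC_000179, an unnamed locus, has acceptors 3 nt apart at chromosome 1, 35223178 to 35223181. No inclusion read was seen among 148 in the deficient library, which allows up to 2.03%, against 50 of 164 in the wild-type library (30.5%, 23.5% to 38.1%). Its depth was similar in the 2 libraries, and inclusion fell by 30.5 points (Fisher's exact adjusted p = 3.20e-14). A 5' site row of the locus, 6 nt wide, was also lower, with 79.3% of 188 reads in the deficient library, against all of 164 in the wild-type library, where 0 exclusion reads allow a share of up to 1.83%. Its inclusion reads, 149 in the deficient and 164 in the wild-type library, nearly equal all reads of the tandem row, 148 and 164. The pair of rows may therefore not be independent.

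CTSB encodes cathepsin B, a lysosomal cysteine protease, and its acceptors lie 3 nt apart at chromosome 3, 106998519 to 106998522. It included 93 of 125 reads in the deficient library (74.4%, 65.8% to 81.8%), against 95 of 96 in the wild-type library (99.0%, 94.3% to 99.97%). Exclusion reads were 32 in the deficient library, against 1 in the wild-type library, and inclusion fell by 24.6 points (Fisher's exact adjusted p = 3.25e-06). Those numbers, 32 and 1, were also the exclusion reads of a 5' site row of CTSB at 2 nt, so they may not belong to the tandem pair alone.

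AP1AR, a regulator of the clathrin adaptor AP-1, has acceptors 3 nt apart at chromosome 4, 56796293 to 56796296. It included 155 of 161 reads in the deficient library (96.3%), against 67 of 83 in the wild-type library (80.7%), a difference of 15.6 points (Fisher's exact adjusted p = 0.00504). Its exclusion reads, 6 in the deficient library and 16 in the wild-type library, were listed for a cassette exon of the gene as well. They may therefore not belong to the tandem pair alone.

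The called rows at other distances included a splicing factor. SRSF6, another SR protein, has acceptors 2 nt apart at chromosome 20, 92055 to 92057. It included 45 of 70 reads in the deficient library (64.3%, 51.9% to 75.4%), against 14 of 52 in the wild-type library (26.9%, 15.6% to 41.0%). The major acceptor switched (Fisher's exact adjusted p = 0.00181).

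Several rows lost all reads of 1 acceptor in the deficient library. MOB4, a component of the striatin-associated phosphatase complex, has acceptors 2 nt apart at chromosome 7, 9740717 to 9740719. It had 0 exclusion reads of 415 in the deficient library, which allows up to 0.723%, against 80 of 661 in the wild-type library. Inclusion was 100% in the deficient library, against 87.9% in the wild-type library (Fisher's exact adjusted p = 4.44e-16). A 5' site row of MOB4, also 2 nt wide, listed the same exclusion reads, so the 2 rows are not independent. Those reads may not belong to the tandem pair alone.

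LOC424393 has acceptors 6 nt apart at chromosome 8, 4751659 to 4751665, with 0 exclusion reads of 714 in the deficient library, which allows up to 0.420%, against 186 of 910 in the wild-type library. It was 20.4 points higher in the deficient library (Fisher's exact adjusted p = 1.92e-48). A second tandem pair of the locus, 9 nt apart, had similar inclusion in both, 81.0% of 310 reads in the deficient library and 78.5% of 339 in the wild-type library (Fisher's exact adjusted p = 1). SEPT8, a septin of the cytoskeleton, has acceptors 6 nt apart at chromosome 13, 16327374 to 16327380. It had 0 exclusion reads of 107 in the deficient library, which allows up to 2.80%, against 15 of 87 in the wild-type library (Fisher's exact adjusted p = 1.39e-04). FAM204A, with acceptors 5 nt apart at chromosome 6, 29190310 to 29190315, lost inclusion instead. It had 0 inclusion reads of 39 in the deficient library, which allows up to 7.69%, against 61 of 158 in the wild-type library (38.6%, Fisher's exact adjusted p = 7.27e-06).

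On unplaced scaffolds, 2 loci had higher inclusion in the deficient library. LOC100857231 has sites 6 nt apart at positions 900 to 906. It included 148 of 508 reads in the deficient library (29.1%), against 0 of 394 in the wild-type library (Fisher's exact adjusted p = 1.83e-39). That count of 0 allows a share of up to 0.761%. XLOC_020325, with sites 8 nt apart at positions 1032 to 1040, included 14 of 20 reads in the deficient library (70.0%, 45.7% to 88.1%), against 4 of 53 in the wild-type library (7.55%, 2.09% to 18.2%). Its 62.5 points were the widest difference among the tested tandem rows, from a row just at the read minimum in the deficient library (Fisher's exact adjusted p = 1.35e-05). UTP20, a component of the small-subunit processome, has acceptors 12 nt apart at chromosome 1, 47517134 to 47517146. It included 3 of 191 reads in the deficient library (1.57%), against 25 of 201 in the wild-type library (12.4%, Fisher's exact adjusted p = 6.88e-04).

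Some wide differences in shallow rows did not pass the test, while those of XLOC_020325 and FAM204A did. At 3 nt, SAAL1 included 16 of 30 reads (53.3%) in the deficient library, against 19 of 22 (86.4%) in the wild-type library (Fisher's exact adjusted p = 0.183). LOC422151 included 23 of 31 reads (74.2%) in the deficient library, against 10 of 22 (45.5%) in the wild-type library. INTS4, a subunit of the Integrator complex, included 14 of 38 reads (36.8%) in the deficient library, against 5 of 34 (14.7%) in the wild-type library. RAD52, a recombination protein, included 13 of 21 reads (61.9%) in the deficient library, against 12 of 30 (40.0%) in the wild-type library. Each had fewer than 40 reads per library, and these 4 rows complete the 8 widest at 3 nt with ZYX, XLOC_000179, RPS16 and CTSB. At other distances, AGFG1 (6 nt) included 17 of 53 reads (32.1%) in the deficient library, against 25 of 43 (58.1%) in the wild-type library (Fisher's exact adjusted p = 0.155). MCM10, a replication initiation factor with sites 11 nt apart, included 3 of 36 reads (8.33%) in the deficient library, against 9 of 28 (32.1%) in the wild-type library (Fisher's exact adjusted p = 0.229).

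Many rows stayed undecided. The 95% Newcombe interval of the difference lay inside 10 points either way in 140 of 280 rows (50%), in 16 of 60 at 3 nt (26.7%) and in 124 of 220 at other distances (56.4%). The median width of that interval was 19.3 points at 3 nt and 11.5 points at other distances. Median reads per row were 87 at 3 nt and 107.5 at other distances in the deficient library. In the wild-type library they were 88 and 102.5. The parts of depth and of the balance between acceptors in these widths were not tested. In 126 rows there was neither a call nor an interval within those bounds.

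Gene lists chosen for this cell type and factor held 68 of the 280 tested rows. The lists were chosen with earlier results of these data known, so their shares of called rows are no test of these gene classes. Of the splicing regulators and hnRNPs 1 of 5 tested members rose, SRSF6, while CELF1, RBM6, SFPQ and THRAP3 did not pass. Of all tested rows 4.70% were called, as were 8.06% of the 124 tested rows of every splicing type in this list, and the SRSF6 call was lost when the chi-square was divided by 2.18, the excess spread of alternative 3' site rows over counting noise (adjusted p = 0.201, not an exact test). THRAP3, an SR-related protein with acceptors 3 nt apart, included 7 of 122 reads (5.74%) in the deficient library, against 14 of 157 (8.92%) in the wild-type library. RBM6, an RNA-binding protein also at 3 nt, included 57 of 60 reads (95%) in the deficient library, against 80 of 80 in the wild-type library, where 0 exclusion reads allow a share of up to 3.75%. CELF1, which binds GU-rich RNA, has acceptors 12 nt apart and included 78 of 104 reads in the deficient library, against 90 of 134 (67.2%) in the wild-type library. Of the core spliceosome 1 of 5 tested rows was called, and its values are not reported here. The rows of PUF60, CWF19L2, PRPF18 and ZRSR2 did not pass. Over every splicing type, 6 of the 48 tested rows in this list were called. PUF60, which helps U2AF at the 3' splice site, included 97.4% of 233 reads in the deficient library, against 93.2% of 207 in the wild-type library, at sites 7 nt apart.

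Among cytoskeletal and mitotic genes 1 of 8 tested rows rose, SEPT8. Of all 205 tested rows of these genes 12.7% were called, against 4.70% of all tested rows, and the SEPT8 call was lost with the same division (adjusted p = 0.111, not an exact test). As this list too was chosen with earlier results known, its share is no result about the gene class. CLASP1, a microtubule-binding protein, has a pair of 3 nt sites in the tested rows: one included 84 of 128 reads (65.6%) in the deficient library, against 94 of 118 (79.7%) in the wild-type library, and the other 25.8% of 62 reads in the deficient library, against 18.8% of 48 in the wild-type library. Neither passed the test. None of the 11 rows of DNA replication and repair, the 8 of vesicle traffic, the 8 of kinases and phosphatases, the 5 of chromatin, or the 4 each of RNA export and decay, the ubiquitin system and transcription was called. The same held for the 3 rows of translation, the 2 of B-cell genes (POU2F1 and TCF12) and the 1 of mitochondria. With 4.70% of all tested rows called, lists this small can hold no call without differing from the rest. Over tested rows of every splicing type, the share called in these lists without a tandem call varied widely. It ranged from 2.68% of 112 rows (DNA replication and repair) to 17.3% of 52 rows (translation), and was 10.2% of 176 rows for the chromatin genes. NUP54, a nuclear pore protein with sites 5 nt apart, passed the adjusted p in Fisher's exact test (0.0327) but differed by only 3.96 points, with 21 of 416 reads included in the deficient library, against 4 of 367 in the wild-type library.

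Read numbers were not always a row's own. In 49 tested tandem rows, 7 of them at 3 nt, the exclusion or the inclusion reads of both libraries were identical to those of another row of the gene, and 4 of these were called: AP1AR, CTSB, MOB4 and RPS16. In 8 rows, none at 3 nt, the shared partner was a 5' site row of the same distance, as for MOB4, HPS5 and EXO1. The rows of MCM10, PRPS1 and SAAL1, described above, shared exclusion and inclusion reads alike with a 5' site row of another width. In SAAL1 the sides were exchanged. Their values may therefore not belong to the tandem pair alone. Of the 14 genes with a called tandem row, 10 had other tested rows, 21 in all, and 7 of those were called, against 4.70% of all rows. The 5' site rows of CTSB, MOB4 and RPS16 among the 7 hold the same exclusion reads as the tandem rows and so repeat them. That of XLOC_000179 may overlap its tandem row as well. At the limit of the rule, the 25 tested rows at 12 nt had differences between -14.9 and 17.4 points, and the 12 tested rows at 13 nt had differences between -16.2 and 17.4 points. The widest were PMS1 at 12 nt, a mismatch repair protein with 86.5% of 37 reads included in the deficient library, against 69.0% of 42 in the wild-type library, and LOC100858073 at 13 nt, with 83.3% of 72 reads in the deficient library, against 65.9% of 91 in the wild-type library.

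Differences between the 2 libraries were wider than counting noise gives. The median chi-square of alternative 3' site rows was 2.18 times its value under counting noise alone, 2.41 times at 3 nt (43 rows with sufficient counts) and 2.88 times at other tandem distances (80 rows). With each chi-square divided by 2.18 and p adjusted anew, 8 of the 14 rows remained called (2.86% of tandem rows, against 1.54% of all rows): CTSB, LOC100857231, LOC424393, MOB4, RPS16, XLOC_000179, XLOC_020325 and ZYX. After this division the rows lost included those of SRSF6 (adjusted p = 0.201, no longer an exact test), AP1AR (0.213), UTP20 (0.175), SEPT8 (0.111) and FAM204A (0.0788). XLOC_020325 remained although its Fisher's exact adjusted p was higher than that of FAM204A (1.35e-05, against 7.27e-06). An expected count of XLOC_020325 lay just under 5, so its chi-square is a rough approximation. The divisor of 2.18 is smaller than the ratio of the tandem rows themselves, 2.78 over 123 rows with sufficient counts. It therefore allows for less spread than the tandem rows showed, and the 8 calls were not tested with 2.78. No such ratio is given for all rows of the table, so 2.86% and 1.54% are not a like comparison.

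The adjusted p in the authors' deposited table called 0 of the 280 tandem rows, against 2.33% of all tested rows under the same minimum reads and difference. In the authors' deposited table it was exactly 1 for all 339 alternative 3' site rows at 1 to 8 nt, of which 185 were tested and 12 were called by Fisher's exact test. The same was true of all 253 alternative 5' site rows at 1 to 8 nt in the authors' deposited table. From 9 to 12 nt it was 1 in 59 of 95 tested alternative 3' rows (62.1%), close to the 58.0% of rows over 12 nt apart. The lowest value of any tandem row in the authors' deposited table was 0.0642, for PES1, a ribosome biogenesis protein, at 10 nt. ZYX, RPS16 and the other called rows up to 8 nt were therefore listed at 1, while UTP20 was listed at 0.150 in the authors' deposited table.

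**Figure D5:**
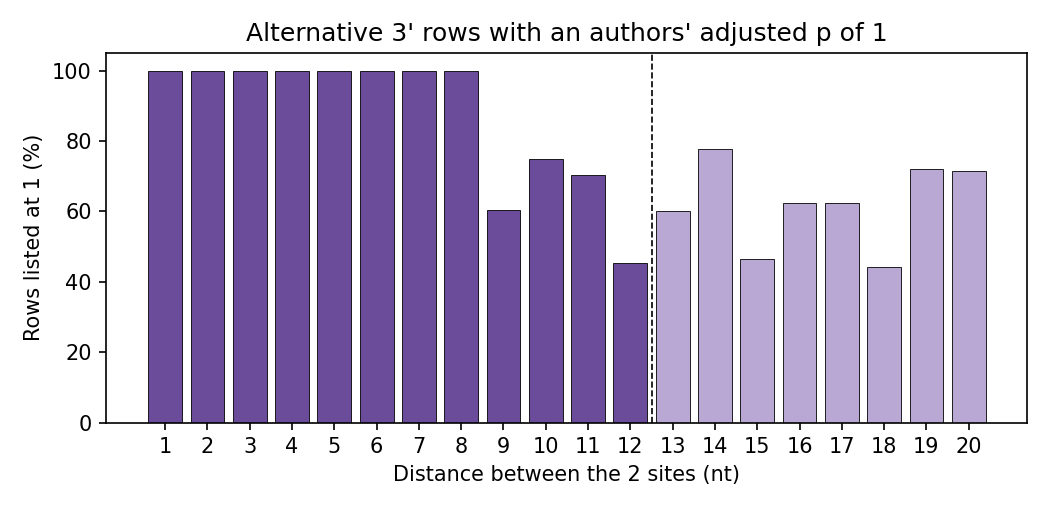
Percent of alternative 3' site rows with an adjusted p of exactly 1 in the authors' deposited table (y axis) by distance between the 2 sites in nt (x axis), with the 12 nt limit drawn as a line. The bars stand at 100% from 1 to 8 nt and lower at each distance from 9 to 20 nt.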

How the data were processed

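Poly(A) RNA of 1 SRSF10-deficient and 1 wild-type DT40 culture was sequenced in paired-end libraries, as the labels' protocols state. Per the submitters' processing notes, TopHat2 2.0.6 and Cufflinks were used with galGal4. Neither the program that listed the events nor the authors' test is given in the sources used here. The deposited table lists raw exclusion and inclusion read counts per event and library, per the file headers, and the authors' adjusted p-value. How many reads were sequenced in all is unknown.

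Of 10652 rows, 276 with other than 2 numbers per library and 63 exact repeats were left out. A further 28 tandem rows on chromosome Z are not described. Distance is end minus start. Rows with at least 20 reads in each library were tested by Fisher's exact test (two-sided), p was adjusted by Benjamini and Hochberg's method over all 6089 tested rows, and a call needed both an adjusted p below 0.05 and 10 or more points of difference. Shares carry 95% Clopper-Pearson intervals and differences Newcombe intervals, and 0 reads are given with the limit of 3 reads. That limit is lower than the end of the Clopper-Pearson interval. For LOC100857231 in the wild-type library it is 0.761%, against 0.932%. Intervals and limits cover counting error only, since reads without molecular identifiers are not independent molecules. For the inflation, the median chi-square of rows with all expected counts at 5 or more was divided by the median under counting noise. Names were matched to the GRCg7b gene table, for names only (377 of 455, 82.9%), and a spreadsheet date was read as SEPT8.

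Named rows were every called row, the 8 widest differences at 3 nt and the 8 at other distances, the 6 most balanced 3 nt rows in wild type with at least 50 reads, the 6 deepest at 3 nt and 4 at other distances, and up to 4 members of each of 13 gene lists. Not every list member so named is given with its values. Among the called rows, 1 is counted but not reported here. The members and lists were chosen with earlier results of these data known. Shared read numbers were compared, and the row of ISCA2 chosen, after the values were seen. Alternatives changed the minimum reads, the minimum difference, the adjusted p, the weight of reads, the allowance for inflation, the source of p, the rows per position and the distance limit. Calling was also tested on simulated data. The values of that test are not reported here, and no call rests on them. The software was matplotlib 3.10.9, NumPy 2.4.6, pandas 2.3.3 and SciPy 1.17.1 under Python 3.11.15.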

Additional observations from a re-analysis of the deposited data

Results flagged for a closer look

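ISCA2, a mitochondrial iron-sulfur cluster assembly protein, has acceptors 3 nt apart at chromosome 5, 37204395 to 37204398, and was not tested because 1 library had no reads there. The row listed 350 reads in the deficient library, 114 of exclusion and 236 of inclusion, against 0 in the wild-type library. The other rows of ISCA2 held reads in both, with 69 and 4 in the deficient library and 59 and 11 in the wild-type library. The signal therefore lay in a row that no comparison used, and its cause was not tested.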

How the results depend on the processing

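The count of 14 called tandem rows was 9 with a minimum difference of 20 points, 9 with reads divided by 2, 8 with each chi-square divided by the inflation and 0 with the authors' adjusted p. It lay between 12 and 17 under the other settings listed in the methods. Without rows that share read numbers, an alternative chosen after seeing the data, it was 10 of 231 rows, 2 of them at 3 nt, and without those shared with a 5' row of the same distance 13 of 272. With at least 50 reads in each library, the median absolute difference at other distances was 1.10 points in place of 1.69. The cause was not tested. The share of 3 nt rows lay between 19.9% and 23.9%. Among the 72 named rows, 14 calls were lost with the authors' adjusted p, 6 with the inflation and 5 with reads divided by 2. The authors' adjusted p could call no alternative 3' row at 1 to 8 nt, as described above, and 12 of the 14 calls lie there. For those 12 rows its outcome was fixed in advance and is no check of the calls. No paired analysis was possible because there was 1 library per genotype, so no library could be left out either. Rows near 20 reads have wide intervals.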

Other observations

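In 24 genes more than 1 tandem row was listed. ABI2, an adaptor of the WAVE complex that drives actin assembly, had 3 tested rows, and all had nearly single use. Its sites 6 nt apart included 99.1% of 231 reads in the deficient library, against 97.7% of 308 in the wild-type library. Its sites 5 nt apart had inclusion reads only, 194 in the deficient library and 253 in the wild-type library, which allow exclusion of up to 1.55% and 1.19%. The same held at its sites 2 nt apart, with 95 reads in the deficient library and 134 in the wild-type library, which allow up to 3.16% and 2.24%. EXO1, an exonuclease of mismatch repair, included 92.2% of 193 reads in the deficient library, against 90.1% of 282 in the wild-type library, at sites 11 nt apart. Its sites 6 nt apart had 8 of 18 reads included in the deficient library, against 5 of 23 in the wild-type library, and were not tested. PCNT, a centrosome scaffold, included 7 of 40 reads (17.5%) in the deficient library, against 14 of 42 (33.3%) in the wild-type library, at sites 3 nt apart, and was not called. These genes were chosen after their values were seen.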
